A study of Caenorhabditis briggsae with 12 samples.

Results

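A set of 43 genes had its highest levels in the 3 libraries of day 9 adults of the nematode Caenorhabditis briggsae, out of 23169 genes counted, or 0.186% of them. A gene was placed in the set when its lowest level among the day 9 libraries was at least 1 CPM (its count divided by the total of its library, times 1000000) and at least 2 times its highest level in the 9 libraries of days 1, 3 and 6, with a mean over all 12 libraries under 1000 CPM. The levels at day 9 and their distance from the other days therefore chose the members and are given below as descriptions with no test. Days 1, 3 and 6 were compared with each other by a test in which no day 9 library took part. The rule capped the levels of those days but took no account of their order.

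The 12 RNA-seq libraries came from whole hermaphrodites of AF16, a wild-type strain of C. briggsae, with 3 libraries each from adults of day 1, day 3, day 6 and day 9. All groups shared this genotype, the food (E. coli OP50) and a temperature of 20 °C, and differed in adult age. Larvae were removed by settling and by picking, so each library is a pool of adults. The labels do not say that replicates came from separate cultures, so p-values measure only how far these samples spread, and that spread may be technical.

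C. briggsae hermaphrodites make a limited store of sperm, fertilise their own oocytes with it early in adult life, and live on after laying has ended. RNA of a whole adult holds transcripts of intestine, muscle, cuticle-forming tissue, neurons, germ line and any embryos still in the uterus, in shares that change with age. In the related C. elegans, late adult life is known for changes in heat-shock, immune-effector and yolk transcripts. The table pairs its identifiers with no gene names, and 0 of them matched the reference table of 22727 genes used for names, so members are given by identifier and no role is assigned to them. In bulk RNA, fewer cells of a type and less RNA per cell cannot be told apart.

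The library totals ran from 14276540 counts in day 9 replicate 1 to 33732477 in day 1 replicate 1. Day 9 replicate 1 stood apart from the other day 9 libraries. Across genes, its log2(CPM + 1) values correlated with those of day 9 replicates 2 and 3 at r = 0.913 and 0.901, and with those of the day 6 libraries at 0.982 to 0.986, while replicates 2 and 3 of day 9 correlated with each other at 0.998 and with the day 1 libraries at up to 0.972. These coefficients are across genes, which are not independent, and describe the libraries. The same limits were met by 1042 genes when day 9 was represented by replicates 2 and 3 alone, and by 309 genes with replicate 1 alone. The 43 members are thus 4.13% of the first list and 13.9% of the second.

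The 43 members together were scarce before day 9 and a small part of the counts at day 9. Their summed level was 118, 126 and 123 CPM in the day 1 libraries, 144, 149 and 107 CPM at day 3, 196, 199 and 232 CPM at day 6, and 3102, 1263 and 1256 CPM in replicates 1, 2 and 3 of day 9. Day 9 replicate 1 had the largest sum, and every day 9 library lay above all others, as the rule requires. As a share of all counts, the set took 0.310%, 0.126% and 0.126% in the 3 day 9 libraries and 0.0107% to 0.0232% in the other 9. The median member stood at 9.18, 4.39 and 4.30 CPM in day 9 replicates 1, 2 and 3, and at 0.229 to 0.894 CPM in the libraries of the earlier days. Without WBGene00027069 and 4 members with close identifiers, both described below, the other 38 summed to 1061, 816 and 841 CPM in the day 9 libraries. Replicate 1 thus stood further above the others through those 5 genes than through the rest.

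**Figure D1:**
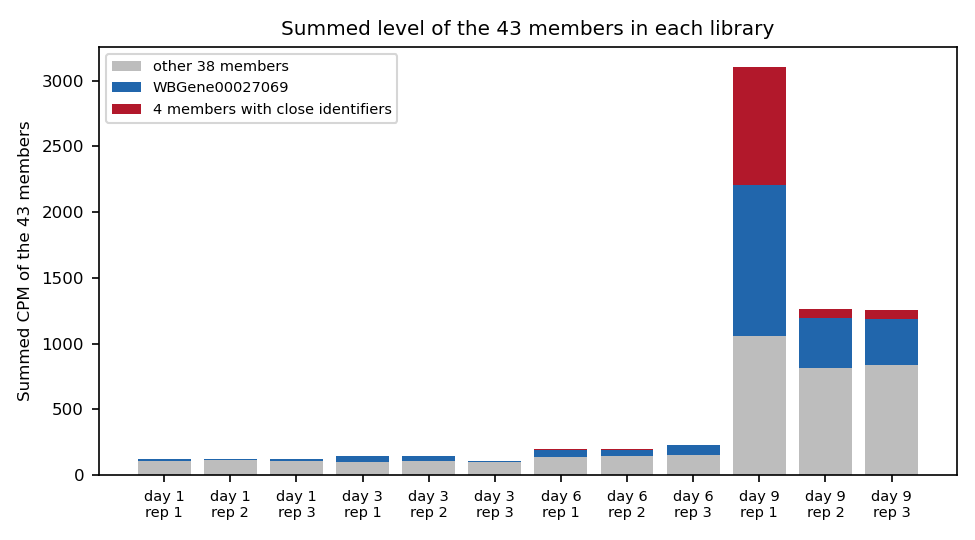
Summed CPM of the 43 members in each of the 12 libraries, as stacked bars from 0, split into WBGene00027069 (blue), 4 members with close identifiers (red) and the other 38 members (grey). The sum was 3102 CPM in day 9 replicate 1, 1263 and 1256 CPM in replicates 2 and 3, and at most 232 CPM in the earlier libraries.

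The members spanned a wide range of levels. Their mean over the day 9 libraries ran from 1.27 to 622 CPM with a median of 7.56 CPM; 5 members reached 100 CPM, 17 reached 10 CPM and 18 stayed under 5 CPM. The mean at day 9 was 2.58 to 249 times the mean of the 9 other libraries, with a median of 9.30. The top of this range, WBGene00024465, stood at 50.9 times without day 9 replicate 1, whereas over all members replicates 2 and 3 alone gave 2.63 to 206 times with a median of 8.46. In 21 members each of the 9 other libraries was under 1 CPM. None of the 43 had 0 counts in all 9 other libraries, but 4 had 0 counts in all day 1 libraries and 1 of these had 0 counts at day 3 too. With 3 counts taken as the limit, 0 counts in a library are compatible with up to 0.0889 to 0.210 CPM, depending on its depth, counting error only.

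**Figure D2:**
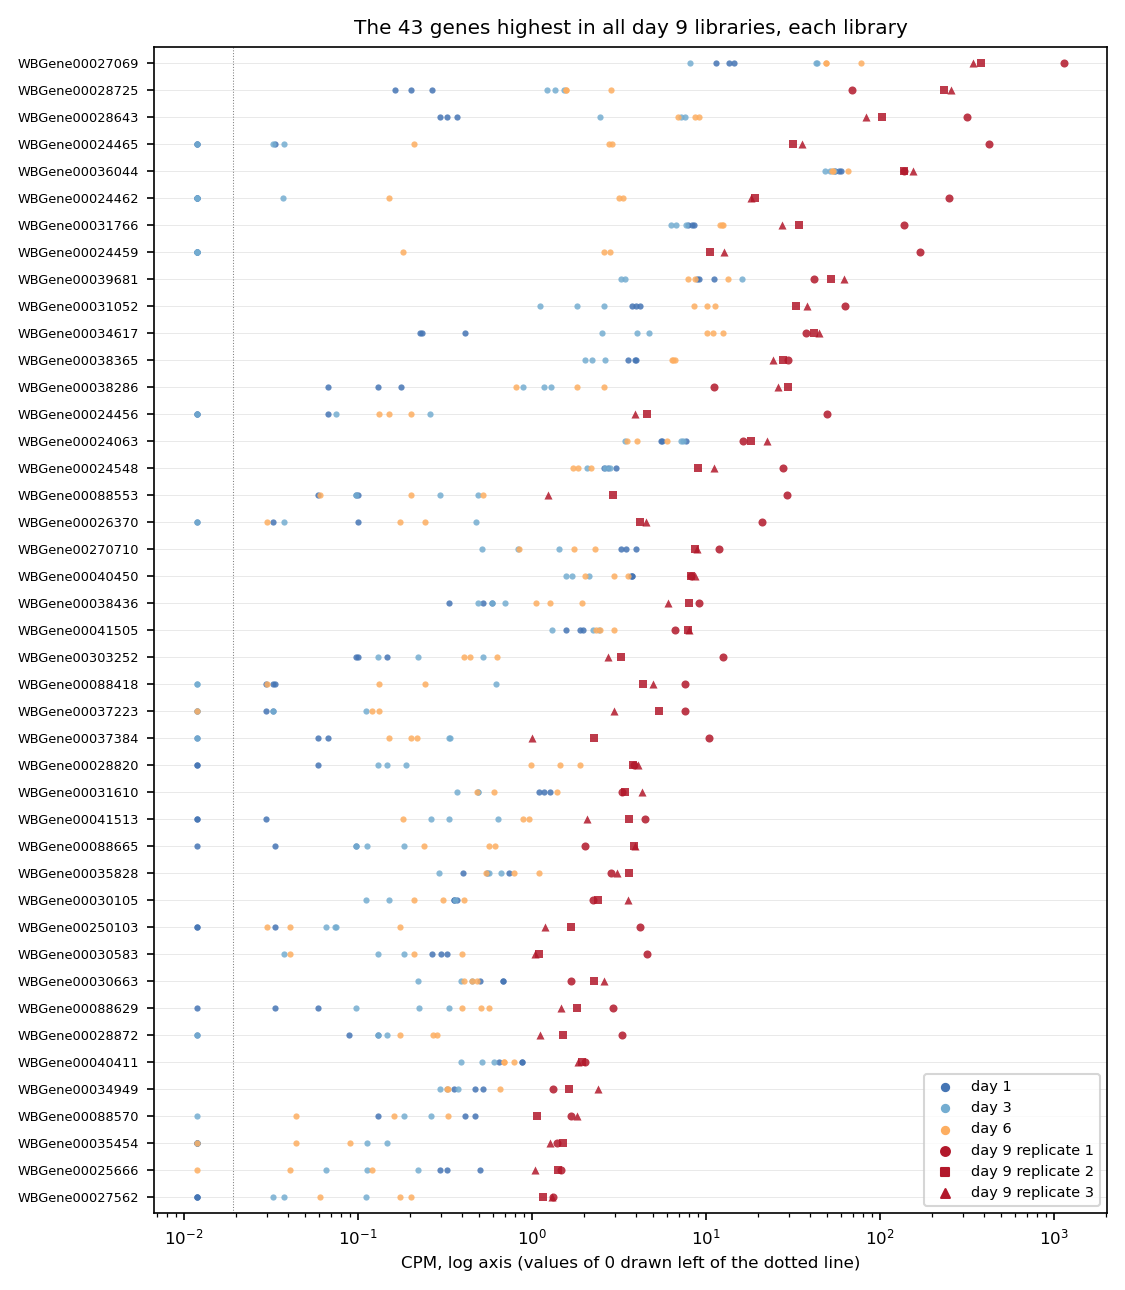
CPM of each of the 43 members in each of the 12 libraries on a log axis, 1 row per member, ordered by mean day 9 level; blue, light blue and orange points are days 1, 3 and 6, and dark red points are the 3 day 9 libraries. All dark red points of a row lie at least 2 times above its other points, by rule, with day 9 means of 1.27 to 622 CPM.

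The most abundant member was WBGene00027069. It stood at 11.5, 14.6 and 13.6 CPM at day 1, at 42.9, 43.5 and 8.11 CPM at day 3, at 49.3, 49.0 and 78.4 CPM at day 6, and at 1143, 380.1 and 344 CPM at day 9. Its mean level at day 9 was 10.6 times that of day 6, and 6.15 times without day 9 replicate 1. Within day 3 it was low in replicate 3 alone, and within day 9 it was highest in replicate 1. This 1 gene supplied 36.8%, 30.1% and 27.4% of the summed level of the set in day 9 replicates 1, 2 and 3.

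WBGene00028725 came next in mean level and had the widest gap between its lowest day 9 library and its highest other library, 24.4 times. Its levels were 0.267, 0.164 and 0.202 CPM at day 1, 1.22, 1.36 and 1.54 CPM at day 3, 1.59, 1.59 and 2.84 CPM at day 6, and 69.3, 235 and 258 CPM at day 9. Each day lay wholly above the day before it. Within day 9 this gene was lowest in replicate 1, unlike WBGene00027069. The next widest gap, 22.6 times, was that of WBGene00037223, a low gene with 7.56, 5.37 and 2.98 CPM at day 9 and at most 0.132 CPM in any earlier library. It had 356 counts over the day 9 libraries and 2 over those of day 1, a ratio of pooled levels of 232 with a 95% counting interval of 63.9 to 1927.

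Some members had a level at day 1 already. WBGene00036044, singled out after its values were seen, was the member with the highest level at day 1. It stood at 55.3, 60.2 and 58.7 CPM at day 1, 52.0, 54.7 and 48.5 CPM at day 3, 53.5, 53.96 and 65.7 CPM at day 6, and 138.2, 138.1 and 156 CPM at day 9. Its mean at day 9 was 2.50 times that of day 6, and the day 9 libraries were close to each other. It met the rule at 2.10 times and was among the members lost with the other scalings given below. It was called in none of the comparisons among days 1, 3 and 6 given below.

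At the edge of the rule, the step at 2 times was not a gap in the data. The members just inside were WBGene00034949, at 2.01 times, and WBGene00028820, at 2.02 times. Their lowest day 9 levels were 1.33 and 3.83 CPM against highest earlier levels of 0.661 and 1.89 CPM. The genes just outside were WBGene00026869, at 1.98 times with 9.53 CPM against 4.80 CPM, and WBGene00028923, at 1.98 times with 2.67 CPM against 1.35 CPM. In all, 22 members had a ratio under 3, and 13 genes outside the set had one between 1.8 and 2.

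The members differed widely in their level in day 9 replicate 1 relative to the other day 9 libraries. The ratio of replicate 1 to the mean of replicates 2 and 3 ran from 0.282 to 14.6 with a median of 1.30. Replicate 1 was above both others in 26 members, below both in 12 and between them in 5. It was at least 2 times the mean of the others in 15 of the 43 members, 34.9%. Among all 11112 genes with at least 1 CPM in each day 9 library, the share was 9.57% and the median ratio 1.01. Replicates 2 and 3 were closer to each other, with ratios of replicate 2 to replicate 3 from 0.586 to 2.38 and a median of 0.990. Across the 43 members, log2 CPM correlated at 0.983 between replicates 2 and 3, and at 0.841 and 0.803 between replicate 1 and these, as a description over members that share libraries.

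The ratio was highest in WBGene00024459, described below, and in WBGene00088553. WBGene00088553 stood at 29.2 CPM in day 9 replicate 1, at 2.95 and 1.24 CPM in replicates 2 and 3, and at most 0.529 CPM in the earlier libraries. The ratio was lowest in WBGene00028725, at 0.282, and in WBGene00038286. WBGene00038286 had 11.1 CPM in replicate 1 and 29.6 and 25.9 CPM in replicates 2 and 3, against at most 2.60 CPM earlier. Both kinds of member met the rule in every day 9 library, with replicate 1 the highest in one kind and the lowest in the other.

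**Figure D3:**
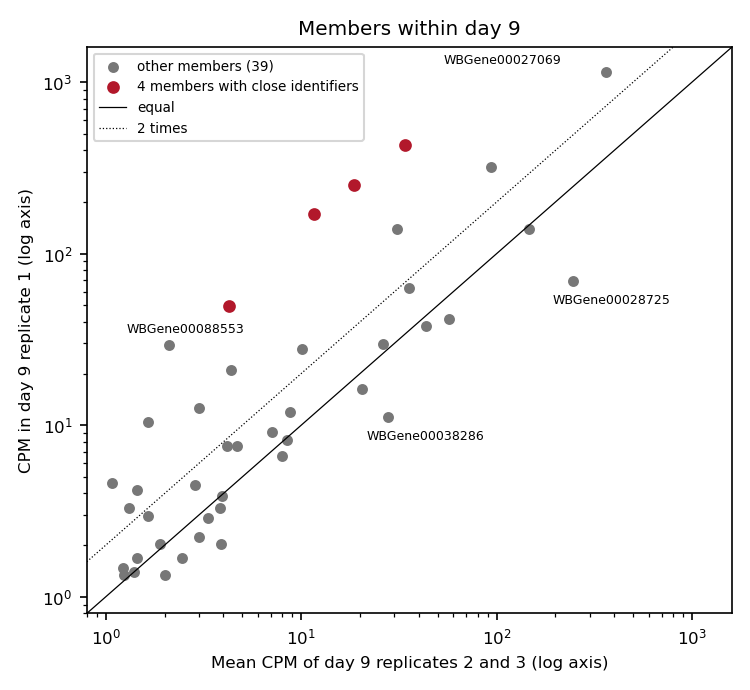
Each of the 43 members by its CPM in day 9 replicate 1 (vertical log axis) and its mean CPM in day 9 replicates 2 and 3 (horizontal log axis), with lines at equal levels and at 2 times; red points are the 4 members with close identifiers and grey points the other 39. The red points lie 11.6 to 14.6 times above equality, and WBGene00028725 and WBGene00038286 lie below it.

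A group of 4 members, WBGene00024465, WBGene00024462, WBGene00024459 and WBGene00024456, carried nearby identifiers and shared a pattern over the day 9 libraries. WBGene00024456, the remaining one of the group, is named after its values were seen. In the table their rows lay 3 apart, with 2 rows between each member and the next; the table does not say whether its order follows the genome, so no position is inferred. All 4 were far higher in day 9 replicate 1 than in the other day 9 libraries, by 11.6 to 14.6 times. Their sum was 898 CPM in replicate 1, 66.2 CPM in replicate 2 and 70.6 CPM in replicate 3.

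WBGene00024465 was the most abundant of the group, with 428, 31.8 and 35.8 CPM at day 9. It had 2.89, 2.77 and 0.212 CPM at day 6 and at most 0.0378 CPM in any library of days 1 and 3. WBGene00024462 stood at 250.2, 19.2 and 18.2 CPM at day 9 and at 3.33, 3.17 and 0.151 CPM at day 6. It had 0 counts at day 1, and its day 9 mean was at least 3003-fold higher than the level that 3 counts over the day 1 libraries would give. WBGene00024459 had 170.3, 10.5 and 12.7 CPM at day 9, 2.81, 2.60 and 0.181 CPM at day 6, and 0 counts in all 6 libraries of days 1 and 3. Its day 9 mean was at least 2022-fold higher than the same limit at day 1. Without day 9 replicate 1, these bounds were 586-fold for WBGene00024462 and 365-fold for WBGene00024459.

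Day 6 replicate 3 was low in the first 3 of these genes, at 0.151 to 0.212 CPM against 2.60 to 3.33 CPM in day 6 replicates 1 and 2. WBGene00024456 did not show this split, with 0.203, 0.132 and 0.151 CPM at day 6 and 49.8, 4.61 and 3.95 CPM at day 9. Of the rows between and around the 4 members, WBGene00024466, also singled out after its values were seen, had the highest level, 0.658 CPM, in day 9 replicate 3. That row was low in day 9 replicate 1, at 0.0700 CPM. The other rows held at most 12 counts over all libraries, too few to show a pattern either way. If the members of this group are near-identical in sequence, the counting could have split reads between them, and the level of each single gene would then be uncertain; this was not tested.

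**Figure D4:**
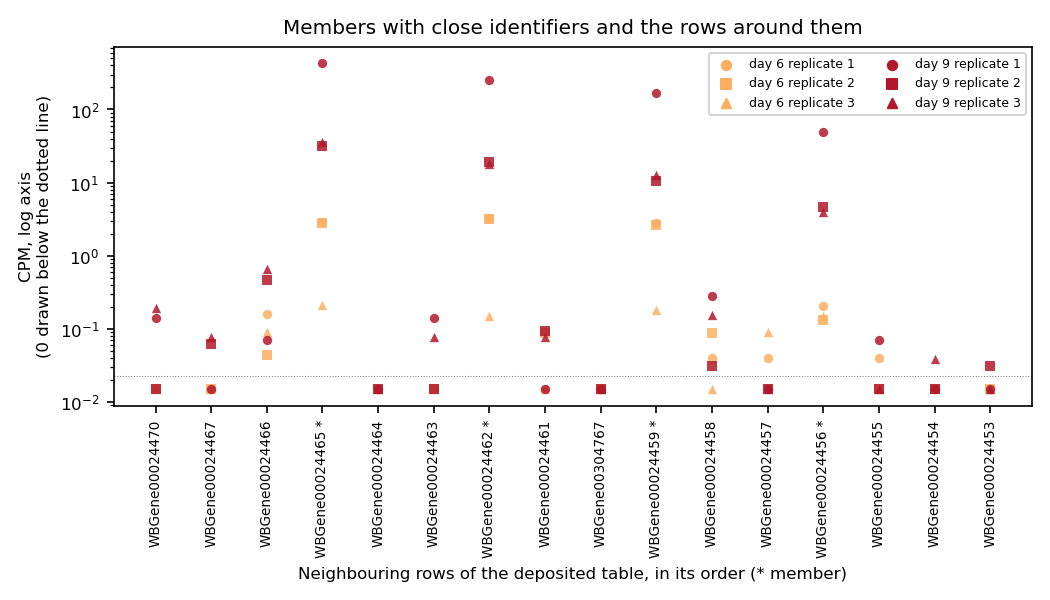
CPM on a log axis, in the day 6 (orange) and day 9 (dark red) libraries, of the 4 members with close identifiers (marked with asterisks) and of the rows around them in the order of the deposited table. The members reach 49.8 to 428 CPM in day 9 replicate 1, and no other row shown exceeds 0.658 CPM in any library drawn.

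To ask whether the members had already changed before day 9, days 1, 3 and 6 were compared in a fit of their 9 libraries (edgeR quasi-likelihood, p-values adjusted over all 15409 tested genes by Benjamini-Hochberg, threshold 0.05). Of the 43 members, 26 passed the filter on low counts and 17 did not. The filter asked for at least 0.337 CPM, which is 10 counts in a library of median depth, in at least 3 of the 9 libraries. Of the 26, 14 reached this limit in all 9 libraries and 6 reached it in no day 1 library. These 6 entered the fit through later days, on which they were higher. All 6 are among the members called higher at day 6 than at day 1, 5 of them also among those called higher at day 3. WBGene00028643 and WBGene00034617 reached the limit in only 1 day 1 library, so they too entered through later days. Both were called higher at day 3 and at day 6 than at day 1. Of the 6, WBGene00028820 and WBGene00088629, the second named after its values were seen, reached the limit at day 6 alone, and 1 of them is among those called higher at day 6 than at day 3. The counts below therefore describe the 26 and do not stand for all 43.

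From day 1 to day 6, called changes of the members were mostly rises, most of them in members that entered the fit through later days. The median of the mean levels of the 43 was 0.299 CPM at day 1, 0.334 CPM at day 3 and 0.812 CPM at day 6, and 19 members had a higher mean at each of these days than at the one before. At day 6, 13 of the 26 tested members were higher than at day 1 and 2 were lower, where 34.8% of all tested genes were called higher and 41.5% lower. The shares of the 26 members were 50% and 7.69%. The 13 included the 6 that reached the filter limit in no day 1 library, as well as WBGene00028643 and WBGene00034617. These entered the fit through later days, so the share called higher is not read against that of all tested genes. The same holds for the count with a larger change asked for. The median log2 fold change was 0.56 over the 26 members and -0.14 over all tested genes. The 26 include the members that entered through later days, so these medians are not read against each other either. With a log2 fold change of at least 1 asked for as well, 11 members were higher and 1 was lower, where 6.69% and 28.9% of all tested genes were. Counted over all 43 members, the day 6 values were without overlap above the day 1 values in 22 and under them in 5, where 27.8% and 38.2% of the genes with a count were.

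Among the members that passed the low-count filter and the limits for naming (separate ranges on both days, and 1 CPM or more on average on the higher day), WBGene00028820 and WBGene00034617 differed most between days 1 and 6. WBGene00034617 was higher at each age. It stood at 0.415, 0.229 and 0.236 CPM at day 1, 4.04, 4.72 and 2.53 CPM at day 3, 10.2, 10.97 and 12.5 CPM at day 6, and 37.7, 42.0 and 45.0 CPM at day 9. Between days 1 and 6 edgeR estimated a log2 change of 5.24 ± 0.30 (SE). This gene reached the filter limit in only 1 day 1 library and entered the fit through days 3 and 6, so no p-value is given. No library of one day overlapped those of another, and day 9 replicate 1 was close to replicates 2 and 3.

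The 3 most abundant members were also called higher at day 6 than at day 1, though by unequal steps. WBGene00027069 had an edgeR log2 estimate of 2.17 ± 0.61 (SE; adjusted p = 0.0149), and it was called neither between days 1 and 3 nor between days 3 and 6, where day 3 replicate 3 was low. WBGene00028643 had 4.63 ± 0.45 (SE), without a p-value, since it reached the filter limit in only 1 day 1 library. WBGene00028725 had an estimate of 3.25 ± 0.36 (SE), and WBGene00038286, the other gene that was low in day 9 replicate 1, one of 3.70 ± 0.50 (SE); both entered the fit through days 3 and 6 alone, so no p-value is given for them. All 3 of these genes were called higher by day 3 and not called between days 3 and 6.

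WBGene00028820 followed the course of WBGene00034617 at a lower level. It had 0.0593 CPM in day 1 replicate 1 and 0 counts in the other day 1 libraries, 0.148, 0.189 and 0.131 CPM at day 3, 1.46, 1.89 and 0.998 CPM at day 6, and 3.85, 3.83 and 4.07 CPM at day 9. It reached the limit of the filter at day 6 alone, so it entered the fit through the day on which it was high, and its differences between these days are given without a p-value. It had 112 counts over the day 6 libraries and 2 over those of day 1, a ratio of pooled levels of 65.5 with a 95% counting interval of 17.7 to 547.

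The 2 members called lower at day 6 than at day 1 were WBGene00270710 and WBGene00024548. WBGene00270710 stood at 2.32, 1.76 and 0.846 CPM at day 6 and 3.50, 3.27 and 3.97 CPM at day 1, an edgeR log2 estimate of -1.15 ± 0.36 (SE; adjusted p = 0.0148). WBGene00024548 stood at 2.20, 1.72 and 1.84 CPM at day 6 and 2.61, 2.75 and 3.06 CPM at day 1, an edgeR log2 estimate of -0.54 ± 0.18 (SE; adjusted p = 0.0215). Both were highest at day 9, by rule, at 11.98, 8.66 and 8.87 CPM for WBGene00270710 and 27.7, 9.07 and 11.1 CPM for WBGene00024548. Both calls were lost without day 1 replicate 3, that of WBGene00024548 was also lost without day 6 replicate 2 and by DESeq2, and neither was made in a fit of all 12 libraries.

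Between days 1 and 3 the members went both ways, but all members called higher had entered the fit through later days. At day 3, 7 of the 26 were higher than at day 1 and 5 were lower, where 32.3% and 37.5% of all tested genes were. The shares of the 26 members were 26.9% and 19.2%. With a change of at least 1 on the log2 scale asked for as well, 7 were higher and 2 lower, where 4.91% and 22.0% of all tested genes were. Each of these 7 reached the filter limit in at most 1 day 1 library and entered the fit through later days. The 7 are therefore not read against the share of all tested genes. The median estimate was -0.05 over the 26 members, these 7 included, and -0.14 over all tested genes, and the medians are not read against each other either. Of the 42 members with a count on these days, the day 3 values were without overlap above the day 1 values in 10 and under them in 11, where 24.2% and 39.3% of such genes were. WBGene00028643 had the largest rise within the limits for naming, with 7.18, 7.59 and 2.46 CPM at day 3 and 0.296, 0.327 and 0.370 CPM at day 1. The edgeR log2 estimate was 4.20 ± 0.46 (SE), again without a p-value. This gene reached 9.11, 8.68 and 6.92 CPM at day 6 and 318, 103 and 83.1 CPM at day 9, with replicate 3 low at day 3 and replicate 1 high at day 9. WBGene00034617, described above, had the next largest rise, an edgeR log2 estimate of 3.75 ± 0.31 (SE), also without a p-value.

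Among the tested members within the limits for naming, WBGene00270710 and WBGene00031610 fell most between days 1 and 3. WBGene00270710 had 0.518, 0.831 and 1.44 CPM at day 3 and 3.27 to 3.97 CPM at day 1, an edgeR log2 estimate of -1.81 ± 0.38 (SE; adjusted p = 0.00169). WBGene00031610 had 0.370, 0.491 and 0.492 CPM at day 3 and 1.10, 1.18 and 1.28 CPM at day 1, an edgeR log2 estimate of -1.27 ± 0.40 (SE; adjusted p = 0.0163). For WBGene00031610 the call was lost without day 3 replicate 1. With no day 6 library in the fit, 4 of 22 tested members were called higher at day 3, where 33.5% of all tested genes were. With a stricter low-count filter the count was 4 of 17, where 35.2% of all tested genes were called higher.

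Between days 3 and 6 the called changes of the members were all rises. At day 6, 6 of the 26 were higher than at day 3 and 0 were lower, where 7.59% and 11.7% of all tested genes were. The share of members called higher was 23.1%. The 26 include WBGene00028820 and WBGene00088629, which entered the fit through day 6 alone, and WBGene00028820 is among the 6. The counts of members called higher and the median below are therefore not read against those of all tested genes. At an unadjusted p under 0.05, 8 members were higher and 1 was lower, where 12.9% and 23% of all tested genes were. DESeq2 and limma-voom also called 0 members lower, where they called 12.3% and 10.8% of all tested genes lower. The median log2 fold change was 0.56 over the members and -0.07 over all tested genes. With a change of at least 1 on the log2 scale, 5 were higher and 0 lower, where 2.58% and 3.94% of all tested genes were. Counted over all 43 members, the day 6 values were without overlap above the day 3 values in 15 and under them in 0, where 17.3% and 12.9% of genes with a count were. Without day 6 replicate 3, 11 of 32 tested members were called higher, where 11.6% of all tested genes were.

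Among the tested members within the limits for naming, the largest differences between days 3 and 6 were those of WBGene00028820, which had entered the fit through day 6 alone, and WBGene00031052. WBGene00031052 stood at 10.2, 11.3 and 8.52 CPM at day 6 and 1.11, 1.81 and 2.59 CPM at day 3, an edgeR log2 estimate of 2.33 ± 0.24 (SE; adjusted p = 0.000282). With replicate number as a block, this gene had an edgeR adjusted p of 0.00111. It had been higher at day 1, at 4.18, 3.80 and 3.97 CPM, than at day 3, with an edgeR adjusted p of 0.00424, and it reached 63.0, 33.2 and 38.2 CPM at day 9. Such a dip at day 3 followed by a rise was called in 2 of the 26 members and in 2.87% of all tested genes. In a fit of all 12 libraries the dip of WBGene00031052 was not called, with an edgeR adjusted p of 0.0560.

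**Figure D5:**
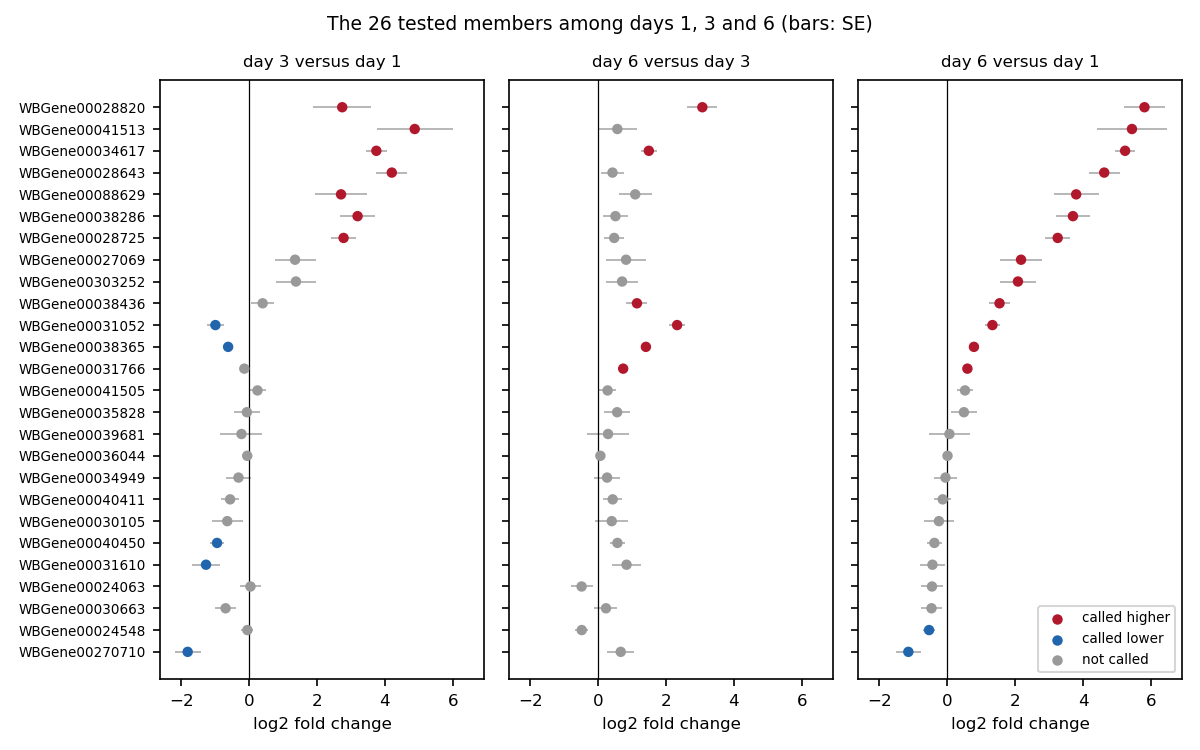
Log2 fold changes (points) with standard errors (bars) of the 26 tested members for day 3 versus day 1, day 6 versus day 3 and day 6 versus day 1, ordered by the last; red points were called higher, blue lower and grey not called. The called numbers are 7 higher and 5 lower, 6 higher and 0 lower, and 13 higher and 2 lower.

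Put together by gene, 2 of the 26 members were called higher in all 3 comparisons, where 2.17% of all tested genes were. Another 5 were called higher on both later days than at day 1 without a call between days 3 and 6, where 25.3% of all tested genes were. Each of these members reached the filter limit in at most 1 day 1 library and entered the fit through later days. Their numbers are therefore not read against the shares of all tested genes. None of the 3 comparisons called 9 members, a pattern of 16.4% of all tested genes. The 4 members with close identifiers were among the 17 that the filter removed, since each reached the limit in at most 2 libraries. In the fit without that filter, where all 43 members were tested, 17 were higher at day 6 than at day 1 by this test and 3 were lower, where 25.8% and 33.4% of all 20690 genes were. WBGene00024465 was called there, with an edgeR log2 estimate of 6.97 ± 1.38 (SE; adjusted p = 0.00221). That estimate rested on 141 counts at day 6 and 1 at day 1, a ratio of pooled levels of 165 with a 95% counting interval of 29.1 to 6556. WBGene00024462 was also called, with an edgeR adjusted p of 0.0217. WBGene00024459 and WBGene00024456 were not called, with edgeR adjusted p of 0.0953 and 0.0684.

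Some libraries of days 3 and 6 stood apart from their group in the members. Of the 20 members with a mean of at least 1 CPM at day 6, 5 had a level in replicate 3 that was at least 2 times below both other replicates, where 1.21% of the 11468 genes at that level did. Among these 5 were WBGene00024465, WBGene00024462 and WBGene00024459 of the group with close identifiers. The remaining ones were WBGene00270710 and WBGene00038286. At day 3 this held for 3 of 14 members in replicate 3, where 0.573% of 11685 genes did. In the other direction, replicate 3 was at least 2 times above both others in 1 of the 14 members at day 3, WBGene00039681, named after its values were seen, where 3.14% of those genes were. At day 6 this held for 0 of the 20 members, where 1.94% of those genes were. Why these libraries stood apart was not tested.

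The earlier course of the set was set beside that of the 999 genes that met the limits in replicates 2 and 3 of day 9 and not in replicate 1. Among days 1, 3 and 6, day 6 had the highest mean level in 58.1% of the 43 members and in 4.80% of those 999 genes, against 32.5% of the 20690 genes with a count on these days. Day 1 had the highest mean in 30.2% of the members and in 85.6% of the 999 genes. In the fit of days 1, 3 and 6, 2.34% of the 899 tested genes among them were called higher and 73.4% lower at day 6 than at day 1, where 50% and 7.69% of the tested members were. The 50% includes the 6 members that reached the filter limit in no day 1 library, as well as WBGene00028643 and WBGene00034617. These entered the fit through later days, so the 50% is not read against the shares of the other lists. Another list, of 266 genes that met the limits in replicate 1 and not in both others, had day 6 highest in 66.2%, with 47.6% of its tested genes called higher at day 6 than at day 1 and 9.01% lower. The differences between the lists were not tested, since the lists were chosen from the same libraries. Across genes, day 9 replicate 1 was near day 6, and replicates 2 and 3 were nearer to day 1 than to day 6. Passing or failing the limits in replicate 1 could therefore by itself tilt a list toward or away from a high day 6. The shares describe the lists and are not read as a result about the members.

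Which genes belonged to the set depended on the day 9 libraries and on scaling. Without day 9 replicate 1 the same limits gave 1042 genes, without replicate 2 they gave 47, and without replicate 3 they gave 59, each list with all 43 members. With TMM factors (trimmed mean of M-values), 30 members stayed past the limits and no other gene was added. With median-of-ratios factors 27 stayed. WBGene00036044, WBGene00270710 and WBGene00028820, described above, were among those lost with either scaling.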

How the data were processed

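Per the labels' protocols, whole-animal RNA was taken up in Trizol and sequencing libraries followed the TruSeq v2 procedure. The deposited table gives read counts per gene, as whole numbers without normalisation, with a column for each library. The tools named are featureCounts, MultiQC and STAR, per the submitters' processing notes. Tool versions, annotation, genome build and strand use were not given in the sources used here, so overlapping or near-identical genes are uncertain. CPM were computed here from column totals. The members and all tests were chosen with earlier results of these data known. Same-day libraries differed beyond sampling noise (chi-square over its degrees of freedom, 4.23 to 288).

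Counts of days 1, 3 and 6 were fitted with edgeR 4.0.16 in R 4.3.3 (filterByExpr by day, TMM, robust quasi-likelihood, 1 mean per day, no block). Replicate numbers were checked by the correlation across genes of same-numbered deviations from the day means. For days 3 and 6 all 3 pairs were over 0.1 (0.126 to 0.299; differently numbered pairs -0.256 to 0.12), so the numbers were taken to pair these libraries, from the data and not the labels. Days 1 and 3 (0.048 to 0.233) and days 1 and 6 (0.0059 to 0.297) did not meet this. The SE is the log2 fold change divided by the square root of F. The fitting code was checked on simulated data, where it recovered 57% to 67% of 2-fold changes and 85% to 87% of 4-fold changes. A member that was not called may therefore still have changed. Intervals are exact (Clopper-Pearson) and cover counting error only. Lists of named genes and cell type markers were not run, because 0 identifiers matched names.

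Genes were named by rule: up to 2 each by day 9 level, by gap to the other days, by each end of the replicate 1 ratio, by each side of the threshold, by level in the largest group of close identifiers (steps of at most 10), and by the largest called change per comparison and direction (no overlap, at least 1 CPM). The alternatives were other scalings and filters, DESeq2 1.42.0, limma-voom (limma 3.58.1), other libraries in the fit, a replicate block, stricter thresholds and each library left out; for the rule, other limits.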

Additional observations from a re-analysis of the deposited data

How the results depend on the processing

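The number of members was 43; it was 27 with median-of-ratios factors, 105 with a ratio of at least 1.5, 21 with a ratio of at least 3, 19 with a lowest day 9 level of at least 5 CPM, and 309 with day 9 replicate 1 as the only day 9 library, an alternative chosen after seeing the data. Leaving out 1 library gave 43 to 1042, the highest without day 9 replicate 1. Removing the limit on the mean left 43. Members called higher at day 3 than at day 1 numbered 7, against 4 with at least 1 CPM in at least 3 libraries and 4 with only these days in the fit, and 7 to 10 with 1 library left out. The 5 lower ones were 2 when a log2 change of 1 was required, and 4 to 7 with 1 library left out. The 6 higher at day 6 than at day 3 were 5 to 11 with 1 library left out. The 13 higher at day 6 than at day 1 were 13 to 18 so, and stayed within 1.5 times of 13 in all 20 alternatives. Members called lower at day 6 than at day 1 numbered 2, against 1 with DESeq2, 1 with all 12 libraries in the fit (a different member), 0 at an adjusted p under 0.01, 1 when a log2 change of 1 was required, and 0 to 3 with 1 library left out. Apart from alternatives that test fewer genes or ask for more, the cause was not tested. With the replicate block, for paired (days 3 and 6) and unpaired days alike, calls were 7 higher and 5 lower (day 3 against day 1), 6 and 0 (day 6 against day 3), and 13 and 2 (day 6 against day 1), each time the same members. Upper-quartile scaling moved the all-gene median log2 change between days 1 and 6 from -0.14 to -0.29, with 13 members higher and 3 lower. Of 298 refitted values of 15 log2 changes computed for named members, none changed sign and 14 were no longer called. Day 9 folds without replicate 1 were also added after seeing the data. Depth limits the 17 members that the filter left out.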
